A study of Homo sapiens with 10 samples.

Results

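VEGFA, HIF1A, PFKFB3, SLC2A3, BHLHE40 and TCEB2 are 6 genes of the cell's response to low oxygen. They were chosen by name, with TCEB2 the older symbol of ELOB, and they make up 6 of the 5000 gene names in the 7 peak lists of the series. They hold 56 of the 26273 peaks summed over those lists.

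The series is described as an m6A survey of V16A, a castration-resistant prostate cancer cell line. In MeRIP-seq, RNA fragments that carry N6-methyladenosine are pulled down with an antibody and a peak is called where they pile up. The groups are 2 pulled-down libraries from hypoxia, 1 named EU 40min and 2 from normoxia, each with its own peak list; hypoxia and normoxia each have a further list for the condition as a whole, here called the condition list. EU is read as ethynyl uridine, which marks newly made RNA, over 40 min, and no oxygen condition is given for that library. The labels give no oxygen level and no length of exposure, and they do not say whether replicates are separate cultures, so the spread between libraries may be technical.

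HIF1A encodes the oxygen-regulated subunit of the transcription factor HIF-1. When oxygen is plentiful the protein is hydroxylated, bound by the VHL ubiquitin ligase and destroyed; when oxygen is scarce it persists and switches on genes for glucose use and vessel growth. TCEB2 encodes elongin B, a subunit of the VHL ligase. PFKFB3, which makes an activator of glycolysis, SLC2A3, the glucose transporter GLUT3, VEGFA, the secreted factor that drives vessel growth, and BHLHE40, a transcriptional repressor, are HIF targets. m6A on mRNA is known to lie mostly near stop codons, in 3′ untranslated regions and in long exons, and to affect how long a transcript lasts.

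HIF binds promoters at a short core, and 2 start regions of the set are shown because they hold its ACGTG form more than once and belong to genes with a peak in both hypoxia libraries. Of the 6 genes, 4 matched the promoter table, TCEB2 as ELOB. Both regions are from RefSeq, build GRCh38.p14, plus strand, 250 bases before to 50 after a transcription start, printed 5′ to 3′. Capitals mark ACGTG and GCGTG on either strand; CACGTG reads as ACGTG on both strands and counts as 2 matches, and 2 neighbouring matches can overlap.
BHLHE40, chr3:4979187-4979486: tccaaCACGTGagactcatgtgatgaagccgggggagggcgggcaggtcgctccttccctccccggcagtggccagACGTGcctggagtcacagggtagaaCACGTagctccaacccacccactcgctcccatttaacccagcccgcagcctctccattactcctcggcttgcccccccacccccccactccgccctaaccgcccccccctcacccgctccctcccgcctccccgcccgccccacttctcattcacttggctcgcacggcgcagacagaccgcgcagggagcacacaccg
PFKFB3, chr10:6202682-6202981: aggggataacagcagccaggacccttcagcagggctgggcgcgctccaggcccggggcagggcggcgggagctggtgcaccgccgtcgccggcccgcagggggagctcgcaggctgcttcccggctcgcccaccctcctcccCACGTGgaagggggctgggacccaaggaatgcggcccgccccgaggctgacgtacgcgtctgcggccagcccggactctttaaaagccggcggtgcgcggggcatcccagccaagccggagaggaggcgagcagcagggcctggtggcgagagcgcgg
The BHLHE40 window holds 4 matches, all ACGTG, and the PFKFB3 window holds 2, both in 1 CACGTG. Of 35116 RefSeq start regions of this length, 48.4% hold at least 1 match, 23.1% at least 2 and 4.4% at least 4, so the PFKFB3 count of matches is a common one. These shares count both forms together. At least 1 ACGTG is held by 21.4% of the regions, and the share with ACGTG more than once is not given here. The other PFKFB3 start region and 1 of the 2 for HIF1A hold 1 match, the other HIF1A region holds 0, and the ELOB region holds 2. A match describes letters only. In none of the 7 lists did a peak overlap any of these 6 windows, and the peaks of BHLHE40 and PFKFB3 lay downstream of the windows printed.

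Each library listed a different number of peaks, which bears on every count given here. The lists held 2879 and 6621 peaks in hypoxia replicates 1 and 2, 5044 in the EU library, and 212 and 1563 in normoxia replicates 1 and 2. The 6 genes had 11 and 16 peaks in the hypoxia libraries, 6 in the EU library, and 0 and 2 in the normoxia libraries. Covered bases were 2101 and 4842 in hypoxia, 2200 in EU and 0 and 652 in normoxia. Hypoxia replicate 1 had a peak in 5 of the 6 genes and replicate 2 in all 6, against 2 genes (VEGFA and BHLHE40) in the EU library and VEGFA alone in normoxia replicate 2. Of all 5000 gene names with a peak in any of the 7 lists, 25.2% and 43.0% were called in the hypoxia libraries, 47.8% in the EU library and 2.78% and 17.9% in the normoxia libraries. Those shares are the background for every count of genes by library given here. Genes with no peak in any list, which some gene sets below include, are not in those shares. Members were chosen with such calls known, so nothing is read from their count. Normoxia replicate 1, with the shortest list, had none in the 6 genes, so the normoxia values rest on 1 library. Depth is unknown and input levels were not used here. Absence of a peak does not show that a gene is free of m6A or silent, and less m6A on a transcript and less of the transcript cannot be told apart. In such bulk samples the same holds for fewer cells of a type and less RNA per cell.

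Cell type markers were looked up in the same lists. Of 12 prostate and epithelial markers, 2 and 4 were called in hypoxia replicates 1 and 2, 8 in the EU library, and 1 and 5 in normoxia replicates 1 and 2. FOLH1, KRT8, KRT18 and CDH1 had none in any list, and KLK3, which encodes prostate-specific antigen, had 3 peaks in the EU library alone. Of 14 markers of T and NK cells, all with a peak in some list, 9 and 11 were called in the hypoxia libraries, with 21 and 22 peaks, 11 in the EU library, with 23, and 4 and 0 in the normoxia libraries, with 6 and 0. The T and NK cell count was the larger of the 2 in each library except normoxia replicate 2. Of 6 macrophage markers none had a peak in the 5 libraries, and of 8 endothelial and fibroblast markers PECAM1 alone had peaks, 5 in hypoxia replicate 2. Hypoxia replicates 1 and 2 and the EU library thus had peaks of T and NK cell markers and of prostate and epithelial markers. The same libraries had peaks in 5, 6 and 2 of the 6 genes. In normoxia, replicate 1 had peaks of T and NK cell markers and no VEGFA peak, and replicate 2 the reverse. Markers of T and NK cells are not those of a prostate cancer line. Neither the source of their peaks nor their part in the counts was tested.

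**Figure D1:**
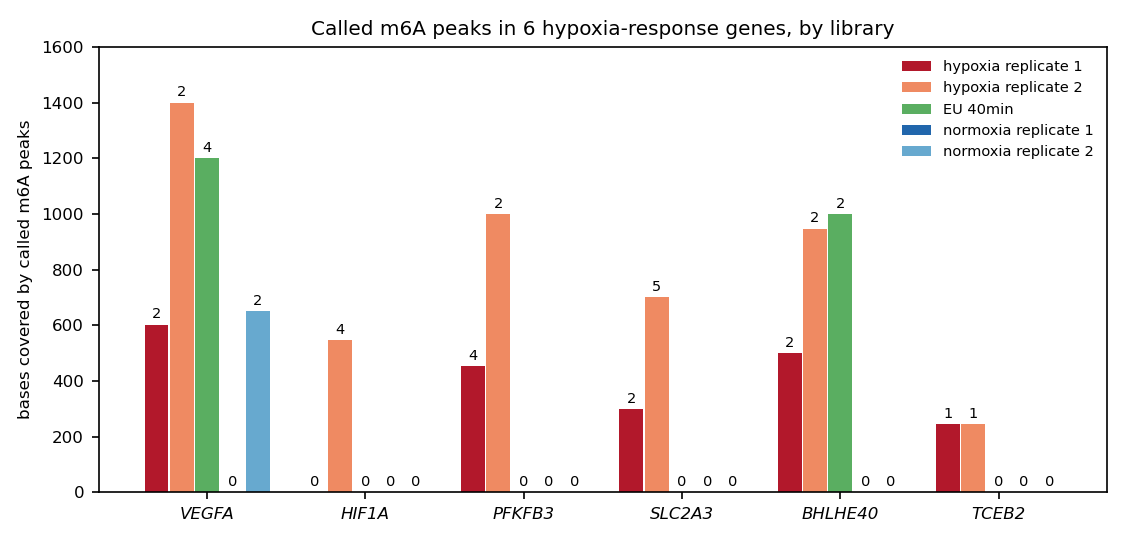
Bases covered by called m6A peaks (vertical axis) in each gene (horizontal axis), 1 bar per library, with the number of peaks over each bar. HIF1A has a bar in hypoxia replicate 2 alone, with 4 peaks, and VEGFA is the only gene with a bar in a normoxia library, with 2 peaks in replicate 2.

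VEGFA was called at 2 sites, 1 near each end of the gene, and was the only gene of the 6 with a peak in every library except normoxia replicate 1. It had 2 and 2 peaks in the hypoxia libraries, 4 in the EU library, and 0 and 2 in the normoxia libraries. The 2 groups overlap, since normoxia replicate 2 equals both hypoxia libraries. The means differed by 1 peak (exact permutation test, two-sided, p = 1). Only normoxia replicate 1 differed from the rest, so every assignment gives a difference of this size and the p does not measure the spread. With 2 libraries against 2 this test cannot give a p below 0.333, so no gene could pass a threshold of 0.05. The difference was 0 without normoxia replicate 1 and 2 without normoxia replicate 2, and with each library shortened to its 212 peaks of smallest p it reversed, to -1.

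The 5′ site of VEGFA had a peak in both hypoxia libraries and in the EU library, and in neither normoxia library. Hypoxia replicate 1 had 1 peak of 201 bases, chr6:43770733-43770933. In hypoxia replicate 2 a peak of 2 blocks covered 750 bases, 730 of them from 43770583 and 20 ending at 43772011, across a gap that is read as an intron. All 201 bases of replicate 1 lie inside the first block of replicate 2, and 501 of the 550 bases of the EU library at this site are also covered in hypoxia. The site begins 323 bases from the 5′ end of the RefSeq gene span, chr6:43770211-43786487.

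The 3′ site of VEGFA was the only 1 of the 18 sites in the set with a peak in a normoxia library. It ran over chr6:43784889-43785788 and ended 699 bases before the 3′ end of the gene span. Hypoxia replicates 1 and 2 covered 401 and 650 bases of it with 1 peak each. The EU library covered 651 bases and normoxia replicate 2 covered 652, each with 2 peaks. Of the normoxia bases, 402 were also covered in hypoxia. The hypoxia peaks ended at 43785339 and 43785538, and the peaks of normoxia replicate 2 reached further towards the 3′ end, to 43785788.

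Within its own list, the VEGFA 3′ site stood higher in normoxia replicate 2 than in the other libraries. By the p the authors deposited for each peak, it ranked 2084 of 2879 in hypoxia replicate 1, with 5.8e-05, and 2069 of 6621 in hypoxia replicate 2, with 4e-06. Its best peak ranked 2046 of 5044 in the EU library, with 4.3e-05, and 80 of 1563 in normoxia replicate 2, with 6.6e-07. Ranks from lists of unequal length do not show a change in methylation. The normoxia condition list had no peak in VEGFA although normoxia replicate 2 did, while the hypoxia condition list had 2, of 700 bases each.

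**Figure D2:**
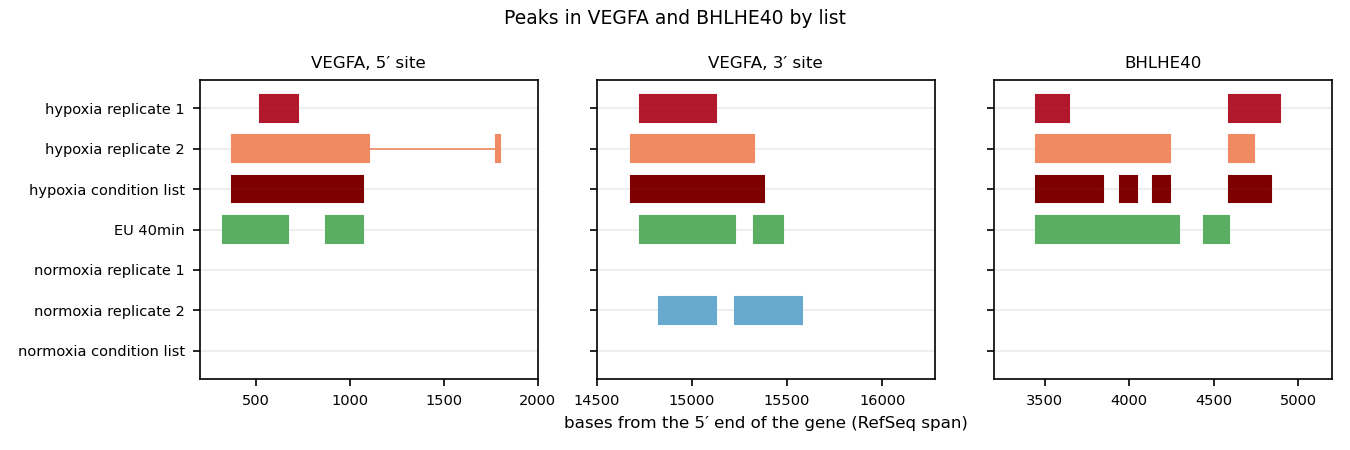
Peaks of VEGFA (left and middle) and BHLHE40 (right) in each list (rows), placed by distance in bases from the 5′ end of the gene; boxes are exon blocks and thin lines join the blocks of 1 peak. The VEGFA 3′ site has boxes in 4 of 5 libraries, and the second EU box of BHLHE40 meets the hypoxia boxes by 1 base.

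HIF1A was called in 1 library. It had 0 and 4 peaks in the hypoxia libraries, 0 in the EU library and 0 and 0 in the normoxia libraries, so the hypoxia and normoxia ranges touch at 0. The difference of 2 peaks between the means rests on hypoxia replicate 2 (exact permutation test, two-sided, p = 1). Only that library had a peak, so every assignment gives a difference of this size and the p does not measure the spread. Without hypoxia replicate 2 the difference was 0, and without hypoxia replicate 1 it was 4.

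The 4 HIF1A peaks were short and apart from each other. They covered 100, 199, 100 and 149 bases, at chr14:61720459-61720558, 61721593-61726471 (3 blocks of 62, 86 and 51 bases), 61738150-61738249 and 61740905-61741053. None came within 7205 bases of the 3′ end of the gene span. They ranked 3685 to 3767 of 6621 in their list, near its middle. The hypoxia condition list kept 3 of the 4, with a deposited p of 0.0069 to 0.0083, at ranks 7371 to 7487 of 7669, close to its end. RefSeq places a long non-coding RNA, HIF1A-AS3, across all 4. How strand was used in calling is not known here, so reads of HIF1A and of this antisense RNA may not have been told apart.

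PFKFB3 and SLC2A3, the glucose genes, both had peaks in both hypoxia libraries and in none of the other 3, but they differed in whether the sites recurred. Together with BHLHE40 and TCEB2 they count as hypoxia-only, meaning a peak in both hypoxia libraries and in neither normoxia library. Of all 3226 genes called in 1 or more of these 4 libraries, 15.3% met that rule and 0.155% met the reverse. The 4 genes were chosen with this pattern known, so their counts carry no test and nothing is read from 4 of 6 beside 15.3%.

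PFKFB3 had 4 and 2 peaks in the hypoxia libraries, 0 in the EU library and 0 and 0 in the normoxia libraries. All 6 lay in 1 stretch of about 1 kb, chr10:6233154-6234250. In hypoxia replicate 1 the peaks covered 150, 101, 101 and 101 bases, the last 3 with gaps of 98 bases and a shared deposited p of 6.8e-06. In hypoxia replicate 2 the same stretch was 1 peak of 848 bases and, after a gap of 98, 1 of 151, both with a deposited p of 4.1e-08. The larger number of peaks in replicate 1 thus went with fewer covered bases, 453 against 999 in replicate 2, and with gaps of up to 100 bases joined, an alternative chosen after seeing the data, each library had 1 peak.

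The normoxia condition list nevertheless had a PFKFB3 peak in that stretch, at chr10:6233104-6233552, 449 bases with a deposited p of 6.6e-05, although neither normoxia library had one there. The hypoxia condition list had 1 peak of 1047 bases, with 9.1e-07. By the condition lists the difference in PFKFB3 was 0 peaks, so its hypoxia-only pattern did not hold there. Of the 492 hypoxia-only genes, 56 (11.4%) likewise had a peak in the normoxia condition list. Such disagreement was general: of the 1231 genes of the normoxia condition list, 528 had no peak in either normoxia library.

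SLC2A3 had 2 and 5 peaks in the hypoxia libraries, 0 in the EU library and 0 and 0 in the normoxia libraries. No peak of 1 hypoxia library overlapped a peak of the other, so presence of the gene in both was not presence of a site in both. Replicate 1 had chr12:7920869-7921018 and a peak of 2 blocks at 7921564-7922902, 150 covered bases each, in the part of the gene nearer its 3′ end. Replicate 2 had its peaks to either side: 7919429-7919528 and 7919627-7919727, of which the first lies 199 bases from the 3′ end of the gene, then 7929863-7929963, a 2-block peak at 7930608-7931458 of 249 bases, and 7936027-7936176, which starts 11 bases from the 5′ end of the gene. The gene is on the minus strand, so its 5′ end has the higher coordinate.

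The hypoxia condition list held all 7 SLC2A3 sites and 2 more peaks that neither library had, 9 in all, covering 1201 bases. That list is not counted as a further replicate. SLC2A3 has a close paralog, SLC2A14, and reads may have been split between the copies; SLC2A14 had 0 peaks in the 7 lists.

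**Figure D3:**
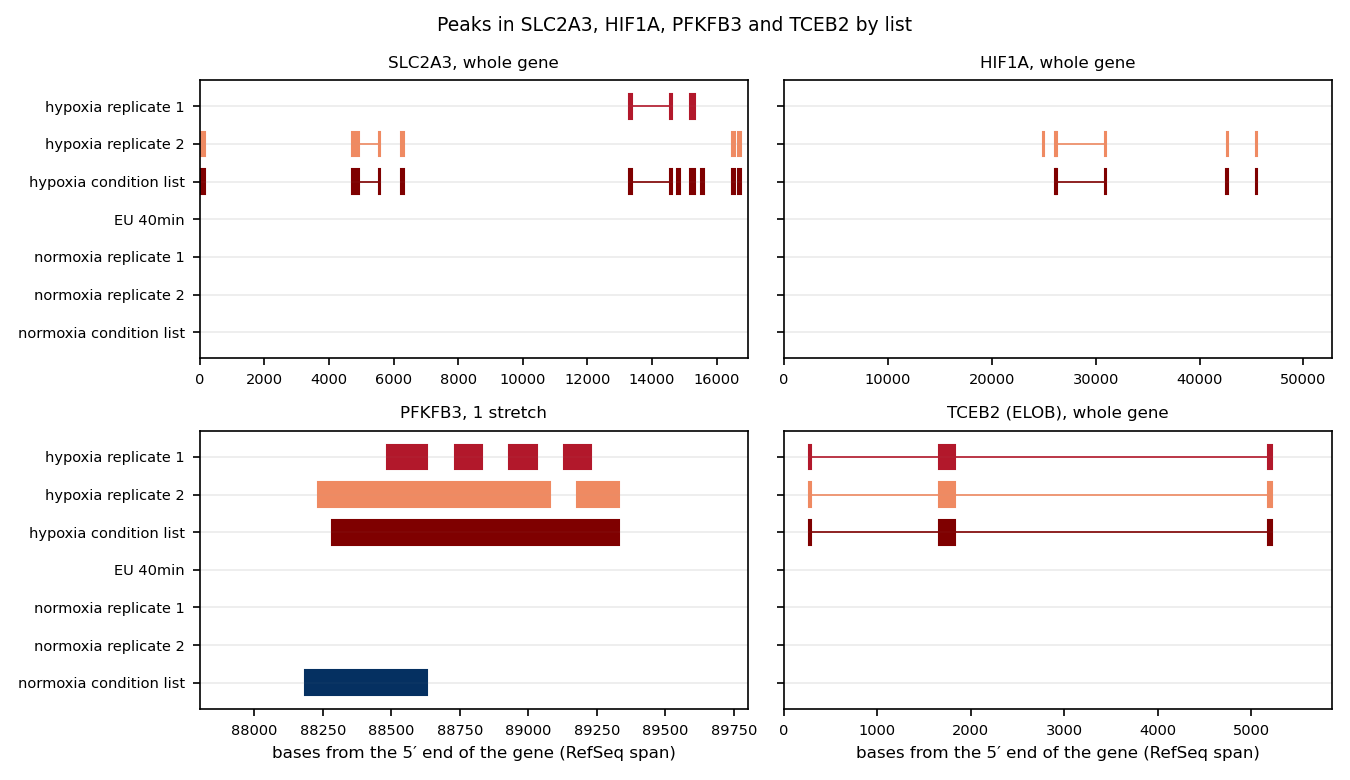
Peaks of SLC2A3, HIF1A, PFKFB3 and TCEB2 in each list (rows), placed by distance in bases from the 5′ end of the gene, with boxes for exon blocks and lines joining the blocks of 1 peak; PFKFB3 is enlarged. The boxes of the 2 hypoxia libraries share no base in SLC2A3 and all 246 bases in TCEB2.

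BHLHE40 had peaks in both hypoxia libraries and in the EU library. The counts were 2 and 2 in hypoxia, 2 in EU and 0 and 0 in normoxia, and the condition lists had 4 in hypoxia and 0 in normoxia. The first site began at chr3:4982882 in all 3 libraries and ran to 4983081 and 4983679 in hypoxia replicates 1 and 2 and to 4983729 in EU. Hypoxia and EU shared 798 bases there. At the second site the hypoxia peaks were 4984028-4984327 and 4984028-4984177, while the EU peak was 4983878-4984028 and met them at 1 base, so at a stricter overlap this site was not shared. The 2 sites begin 3445 and 4441 bases from the 5′ end of a gene span of 5887 bases.

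BHLHE40 peaks stood low in the hypoxia lists and higher in the EU list. Their ranks were 2768 and 2870 of 2879 in hypoxia replicate 1 and 4908 and 4909 of 6621 in replicate 2, with deposited p of 0.0017, 0.0081 and 0.00028, against 1115 and 1116 of 5044 in EU, with 3.8e-06. None of its hypoxia peaks was among the 50% of its list with the smallest p.

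TCEB2, the VHL ligase subunit, had the same peak in both hypoxia libraries and no peak elsewhere but the hypoxia condition list. It lay at chr16:2772051-2777011 on the minus strand and covered 246 bases in 3 blocks of 52, 175 and 19 bases, spread over most of the 5867 bases of the gene span. It was the only peak of the set with identical blocks in both hypoxia libraries. Its standing was not the same: it ranked 273 of 2879 in replicate 1, with a deposited p of 9.3e-07, and 6524 of 6621 in replicate 2, with 0.0083. The counts were 1 and 1 in hypoxia, 0 in EU and 0 and 0 in normoxia.

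**Figure D4:**
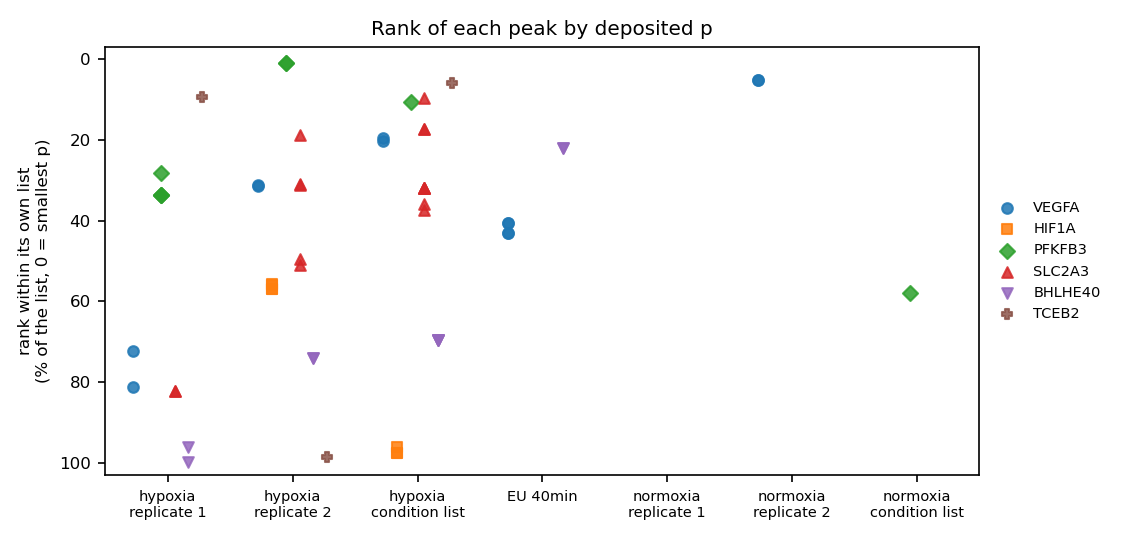
Rank of each peak within its own list (vertical axis, % of the list, smallest deposited p at the top) for each list (horizontal axis), with 1 symbol per gene. TCEB2 stands at 9.48% in hypoxia replicate 1 and 98.5% in replicate 2, and the VEGFA peaks of normoxia replicate 2 stand at 5.12% and 5.18%.

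Merged over the 5 libraries, the 35 peaks of the 6 genes formed 18 sites, each made of peaks of 1 gene that share at least 1 base. Each had a peak in at least 1 hypoxia library, 7 had 1 in both, 4 also in the EU library and 1 also in normoxia. The 7 were both sites of VEGFA, PFKFB3 and BHLHE40 and the 1 of TCEB2, and the other 11 were all those of SLC2A3 and HIF1A. When a shared site needed 50% of both peaks, 3 sites, 1 each in VEGFA, BHLHE40 and TCEB2, stayed in both hypoxia libraries and PFKFB3 had 0. Without normoxia replicate 2, 0 of the sites were in a normoxia library.

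Counted by peak, 9 of the 11 peaks of hypoxia replicate 1 in these genes were overlapped by replicate 2, where 47.4% of all peaks of that library were, and 7 of 16 in the other direction, where 19.2% were. Normoxia overlapped 1 of 11 and 1 of 16, beside 10.9% and 8.07% of all peaks. EU overlapped 4 of 11 and 4 of 16, beside 28.4% and 23.4%. In the other direction, all 6 EU peaks in these genes were overlapped by hypoxia, where 34.1% of all EU peaks were, and both normoxia peaks by hypoxia and by EU, where 34.0% and 54.1% were. These peaks share genes and neighbours, the 6 genes were named with earlier calls in these libraries known, and the differences from all peaks were not tested.

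Peak edges in these genes fell on a grid, and neighbouring peaks often shared a p. Of 21 pairs of overlapping single-block peaks from different libraries, 19 had starts that differed by a multiple of 50 bases, within 1 base. Of the 56 peaks in the 7 lists, 31 had the same deposited p as another peak of the same gene and list. Between such neighbours in the 5 libraries, 6 of 11 gaps were 97 to 99 bases. The number of peaks is thus a coarse measure, and covered bases are given beside it. Peaks of the set covered 100 to 848 bases, with a median of 199, and 6 of 35 had more than 1 block.

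Outside the set, 57 further HIF targets were looked up. Of these, 14 were called in 1 or more of the 4 hypoxia and normoxia libraries and 2 were hypoxia-only: CXCR4, a chemokine receptor, with 1 and 2 peaks in hypoxia, and HILPDA, a lipid droplet protein gene, with 1 and 1 in hypoxia and 1 in EU. No target was normoxia-only. Of all 61 targets with the set included, 5 of the 18 with a peak were hypoxia-only (27.8%), beside the 15.3% of all genes. Of these 5, 3 belong to the set and were chosen with the pattern known, so nothing is read from the 27.8%. The 40 cell type markers had the same share, 5 of 18, but that share pools unlike lists. It was 5 of 11 for T and NK cell markers, 0 of 6 for prostate and epithelial ones and 0 of 1 for endothelial and fibroblast ones. The count of hypoxia-only targets was 12 without hypoxia replicate 1, where a peak in the remaining hypoxia library suffices. No share of all genes was computed under that looser rule, so the 15.3% is not its background. STC2, a secreted glycoprotein gene, had 1 and 2 peaks in hypoxia, 1 in EU and 0 and 3 in normoxia, so it was called in the same 4 libraries as VEGFA.

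In DDIT4, CITED2 and PLOD1, as in STC2, no hypoxia library had the highest count. DDIT4, an inhibitor of mTORC1, had 0 and 1 in hypoxia, 1 in EU and 0 and 3 in normoxia. CITED2, which competes with HIF-1 for its coactivators, had 1 and 0 in hypoxia, 3 in EU and 0 and 3 in normoxia. PLOD1, a collagen-modifying enzyme gene, had 1 and 0 in hypoxia, 2 in EU and 0 and 1 in normoxia. In each of these 3 genes, and in STC2, the hypoxia and normoxia ranges overlap. Of 21 genes of glucose uptake and glycolysis, 2 were called in hypoxia replicate 1 (PFKFB3 and SLC2A3), 4 in hypoxia replicate 2 and 0 in either normoxia library; 8 of the 21 had a peak in any of the 7 lists. Over all gene names with a peak in any of the 7 lists, the shares were 25.2% and 43.0% for hypoxia replicates 1 and 2. They were 2.78% and 17.9% for normoxia replicates 1 and 2. The set of genes to hold beside these shares is the 8 with a peak, not the 21. The 4 called in the EU library were others, SLC2A1, GAPDH, ENO1 and PKM, with 1, 2, 4 and 4 peaks and none in any other list; these names were chosen after their values were seen.

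The HIF pathway outside the set had no hypoxia-only gene. Of the 22 pathway genes with HIF1A and TCEB2 included, 8 were called in 1 or more of the 4 libraries and TCEB2 alone was hypoxia-only (12.5%), beside the 15.3% of all genes. By the same reading the count was 5 without hypoxia replicate 1, and it was 2 without normoxia replicate 2. The 15.3% is not the background of these counts either. SIAH2, a ubiquitin ligase that acts on the oxygen-sensing hydroxylases, had 2 and 2 peaks in hypoxia, 1 in EU and 0 and 1 in normoxia. HSP90AA1 and HSP90AB1, chaperones that hold HIF1A stable, were called in hypoxia replicate 2 and not in replicate 1, as HIF1A was. HSP90AA1 had 0 and 7 peaks in hypoxia, 1 in EU and 0 and 0 in normoxia, and HSP90AB1 had 0 and 5 in hypoxia, 0 in EU and 0 and 0 in normoxia. HSP90 genes have near-identical copies, so these counts are uncertain. EP300, a HIF coactivator, had 0 and 0 in the hypoxia libraries, 3 in EU and 0 and 3 in the normoxia libraries. The condition lists differed from this, with 6 EP300 peaks in hypoxia and 3 in normoxia. None of EGLN1, EGLN2 and HIF1AN, the oxygen sensors, and none of the HIF subunits EPAS1, HIF3A, ARNT and ARNT2 had a peak in any of the 7 lists.

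By peak number over the 5 libraries, VEGFA had no equal among 4326 other genes. The nearest by the sum of absolute differences, each at a distance of 2, were HNRNPF, with 2 and 2 peaks in hypoxia, 2 in EU and 0 and 2 in normoxia, FAM78A, with 2 and 2, 4, and 0 and 0, and PPP1R15B, with 2 and 1, 4, and 0 and 3. HIF1A shared its numbers with 96 genes, of which MAPKAPK2, ZNF70 and CYLD had the smallest deposited p. The same numbers were found in 2 other genes for PFKFB3, 8 for SLC2A3, 4 for BHLHE40 and 50 for TCEB2. A pattern of few small counts is shared easily, and the 5 libraries differ in list length.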

How the data were processed

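The libraries were aligned with STAR to hg38, per the submitters' processing notes, without a version number. The caller, threshold, controls, annotation and making of the condition lists are details not given in the sources used here. Deposited lists, 7 in all, have 12 BED columns and no header. Column 5 was read as the p-value the authors deposited for each peak, from its range and ascending order, and served only to rank peaks within a list. Coordinates are printed counting from 1.

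Peaks were taken by the gene name in column 4. Peaks of 1 gene that shared at least 1 base by strand and exon block were merged into sites. Peaks per gene were compared over 2 hypoxia and 2 normoxia libraries with an exact two-sided permutation test of the means; 6 assignments exist. Gene spans and promoters came from RefSeq (GRCh38.p14); listed genes were matched by symbol or older symbol within 10 kb. Python 3.11.15 and pandas 2.3.3 were used, and the functions were tested on simulated data. The members and gene lists were chosen with earlier results of these data known. Naming in the HIF target and pathway lists followed a rule: genes with a peak in both libraries of a condition, then up to 6 per list by number of libraries and of peaks, and up to 3 genes nearest to VEGFA and HIF1A. Genes with no peak, EU-only genes and single cell type markers are outside it and were named after their values were seen. No genome sequence was used here, so bases under the peaks are not shown.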

Additional observations from a re-analysis of the deposited data

How the results depend on the processing

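Over 11 results and 114 alternatives, of which 9 (joining peaks at most 100 bases apart) were chosen after seeing the data, 82 kept their direction (of a difference) or stayed within 1.5 times (of a count), 31 moved and 1 reversed; no alternative could pass a threshold of 0.05. With each library shortened to the 212 peaks of the smallest, the VEGFA difference, 1 peak, reversed to -1, those of HIF1A, SLC2A3, BHLHE40 and TCEB2 came to 0, and so did sites in both hypoxia libraries (7), in normoxia (1) and in EU (4) and hypoxia-only genes among HIF targets (5) and pathway genes (1). When lists were shortened to the 50% of peaks of lowest p, VEGFA, HIF1A and BHLHE40 came to 0, the sites to 2 in both hypoxia libraries and 2 in EU, and the genes to 1 and 0. Keeping peaks of 151 bases (the median) or more left 4 sites and 2 targets. Differences that kept their direction still varied in size: SLC2A3, 3.5 peaks, was 0.5 with wide peaks, 9 by the condition lists and 2 without hypoxia replicate 2, HIF1A, 2, was 0.5 with wide peaks, and PFKFB3, 3, was 1 with wide peaks, with lists of 212 and with joined peaks. With an overlap of 50% of both peaks, 3 sites were in both hypoxia libraries and 2 in EU. By the condition lists PFKFB3 came to 0, targets to 11 and pathway genes to 5. Sites in both hypoxia libraries cannot be counted there. No share of all genes was computed beside the counts of targets and pathway genes in any alternative. Without 1 replicate the VEGFA difference ran from 0 (without normoxia replicate 1) to 2, HIF1A from 0 (without hypoxia replicate 2) to 4, sites in both hypoxia libraries from 7 to 16 (void where 1 hypoxia library is left, since each of its sites then counts) and in normoxia from 0 (without normoxia replicate 2) to 1, targets from 5 to 12 and pathway genes from 1 to 5, the last 2 highest without hypoxia replicate 1. Some of these moves follow by construction, as where a rule asks for fewer libraries or a list keeps fewer peaks. What set the others, among them the VEGFA reversal and the counts by the condition lists, was not tested. With the replicate number as a replicate block the VEGFA difference was 1 and no paired p could fall below 0.5; the block changed no call, and replicate differences in the 2 conditions had a correlation of -0.0978 over 3226 genes. Depth is unknown, so how far it limits these counts was not tested.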
